A study of Mus musculus with 6 samples.

Results

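MHC class I presentation genes are described here in EGFP+ cells sorted from mouse hearts, in 6 RNA-seq libraries. The 10 genes were chosen by name from the 28987 rows of the deposited table, and the choice was made with results of the comparison below already known, so their differences between the groups are a description and not a test. They are 5 heavy chains (H2-K1, H2-D1, H2-Bl, H2-T23 and H2-M3), the light chain B2m, both subunits of the peptide transporter (Tap1 and Tap2), the loading factor Tapbp and the trimming enzyme Erap1. All 10 were found in the table, and all 10 had a mean of at least 1 in the table's linear unit over the 6 libraries. H2-Bl reached that mean only through the group in which it was high.

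Cells were taken from ventricles 4 weeks after TAC (transverse aortic constriction), an operation at 8 to 10 weeks of age that narrows the aorta and loads the heart with pressure. All mice carried a tamoxifen-activated Cre recombinase (MerCreMer) knocked into the Postn locus and a Cre-dependent eGFP reporter in the Rosa locus. All were given tamoxifen, which the labels list as 2 injections of 100 mg/kg and chow of 40 mg/kg. The 3 control libraries had no further allele in their labels, and the 3 other libraries were from Hsp47flox/flox mice, in which Cre also removes Hsp47 (Serpinh1), a collagen chaperone. Recombination depended on Postn being switched on, so the sort took cells of the Postn lineage and not all cardiac fibroblasts, and cells of the deleted hearts outside that lineage kept Hsp47. By the study's methods the mice were male and of C57BL/6 background.

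Before the results, 2 features of the libraries have to be stated. First, the titles place control replicates 3 and 4 in a first sequencing run, and control replicate 2 and all 3 libraries labelled Hsp47-deleted in a second, so run and group cannot be told apart for 2 of the 3 controls. Control 2 was closer to the libraries labelled Hsp47-deleted (Pearson r across genes 0.872 to 0.936) than to controls 3 and 4 (0.827 and 0.761). Second, Serpinh1 was 6.28, 6.10 and 7.60 in controls 3, 4 and 2, and 6.87, 6.67 and 6.66 in the libraries labelled Hsp47-deleted, a difference of 0.07 ± 0.43 (SE; limma with Benjamini-Hochberg adjustment, adjusted p = 0.947). Against control 2 alone the difference was -0.87. RNA of the targeted gene was thus lower than in control 2 but not lower than in controls 3 and 4, and the group is called "labelled Hsp47-deleted" throughout. By Western blot, the study reported that Hsp47 protein was efficiently lost from sorted EGFP+ cells of this genotype. The RNA level of the whole gene is another measure, and why it did not follow was not tested. Fibroblast markers were high in every library, with summed linear values of 11570, 11070 and 17140 in controls 3, 4 and 2, and 18450 to 22430 in the labelled Hsp47-deleted libraries.

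Values are log2(value + 1) as the authors deposited them. The linear unit was not named and the table holds no counts, so levels are compared between libraries and not between genes, and the difference of a low gene is understated on this scale. The labels do not say whether each library came from its own animal, so the errors below rest on a spread of libraries that may be technical. An SD is the spread among the 3 libraries of a group. An SE is limma's moderated error, taken from both groups and drawn toward a trend over all tested genes. It can therefore differ from the spread of the gene itself.

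MHC class I molecules show peptides from inside a cell to CD8+ T cells and natural killer cells. Proteasomes cut proteins into peptides, the Tap1-Tap2 transporter carries the peptides into the endoplasmic reticulum, Erap1 trims them, and Tapbp (tapasin) holds a heavy chain paired with B2m beside the transporter until a peptide is bound. Interferons raise most genes of this pathway through interferon-response elements and through a promoter module bound by RFX, NF-Y and Nlrc5. NF-κB sites are a separate element of class I promoters. Nearly all nucleated cells carry class I molecules, fibroblasts included, while class II molecules are carried mostly by professional antigen-presenting cells.

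In the GENCODE M21 annotation of GRCm38, 8 of the 10 genes lie on chromosome 17. Of the heavy chains, H2-K1 spans chr17:33996017-34000347 on the minus strand, H2-D1 chr17:35262730-35267499 on the plus strand, H2-Bl chr17:36080115-36084223 on the minus strand, H2-T23 chr17:36029773-36032855 on the minus strand, and H2-M3 chr17:37270220-37274484 on the plus strand. Tapbp (chr17:33915899-33929292), Tap1 (chr17:34187553-34197225) and Tap2 (chr17:34203527-34216321) lie on the plus strand of the same chromosome. B2m lies at chr2:122147686-122153083 and Erap1 at chr13:74639568-74693201, both on the plus strand. H2-Bl is annotated as a polymorphic pseudogene, and the other 9 genes as protein coding.

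Promoter sequences of heavy chains and of B2m are shown as background. Whether their letters bear on the values in the libraries was not tested. RefSeq promoter sequences of GRCm38.p6, from 250 bases before to 50 bases after the start, were found for 8 of the 10 genes, with none for H2-Bl and Tap2, and for 2 starts of H2-K1, which gave 9 promoters. The bases before the second H2-K1 start (chr17:34000348-34000597, minus strand) and those before the B2m start (chr2:122147437-122147685, plus strand) are given 5′ to 3′, with matches to the motifs listed after them in capitals.
H2-K1: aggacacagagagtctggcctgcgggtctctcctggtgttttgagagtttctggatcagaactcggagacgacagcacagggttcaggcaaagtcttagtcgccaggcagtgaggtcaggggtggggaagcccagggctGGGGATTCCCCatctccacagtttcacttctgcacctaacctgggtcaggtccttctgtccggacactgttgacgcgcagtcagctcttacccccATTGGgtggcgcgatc
B2m: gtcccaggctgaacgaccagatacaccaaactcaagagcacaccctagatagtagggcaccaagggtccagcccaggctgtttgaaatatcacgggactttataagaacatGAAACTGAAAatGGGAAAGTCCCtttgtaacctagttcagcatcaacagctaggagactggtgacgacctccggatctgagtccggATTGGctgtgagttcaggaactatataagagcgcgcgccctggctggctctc

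Each motif was searched on both strands. The NF-κB-like motif (GGGA, any 4 bases, CC) was found in 4 of the 8 genes (5 of the 9 promoters, since both H2-K1 starts share 1 site) and in 20.7% of the 32851 mouse promoters of the same length. The 30 bases around it are set side by side for H2-K1 (chr17:34000438-34000467, minus strand), H2-D1 (chr17:35262914-35262943, plus strand), H2-M3 (chr17:37270098-37270127, plus strand) and B2m (chr2:122147551-122147580, plus strand), with the match in capitals.
H2-K1: cccagggctGGGGATTCCCCatctccacag
H2-D1: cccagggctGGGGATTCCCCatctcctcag
H2-M3: acccagcattGGAGATTCCCccatttcctc
B2m: actgaaaatGGGAAAGTCCCtttgtaacct

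The matched letters of H2-K1 and H2-D1 were the same, and in H2-K1, H2-D1 and B2m the motif was matched on both strands in overlapping positions. The interferon-stimulated response element core (GAAA, any 2 bases, GAAA) was found in 3 of the 9 promoters, those of H2-T23, B2m and Erap1, and in 3.44% of all promoters. The gamma-activated site TTCNNNGAA was found once, in H2-M3, against 8.30% of all promoters, and CCAAT in 8 of the 9 against 37.4%. In H2-M3 the NF-κB-like match shares 2 bases with a CCAAT match. A match describes letters only, and a promoter without a match may still hold an element whose letters differ from the motif.

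**Figure D1:**
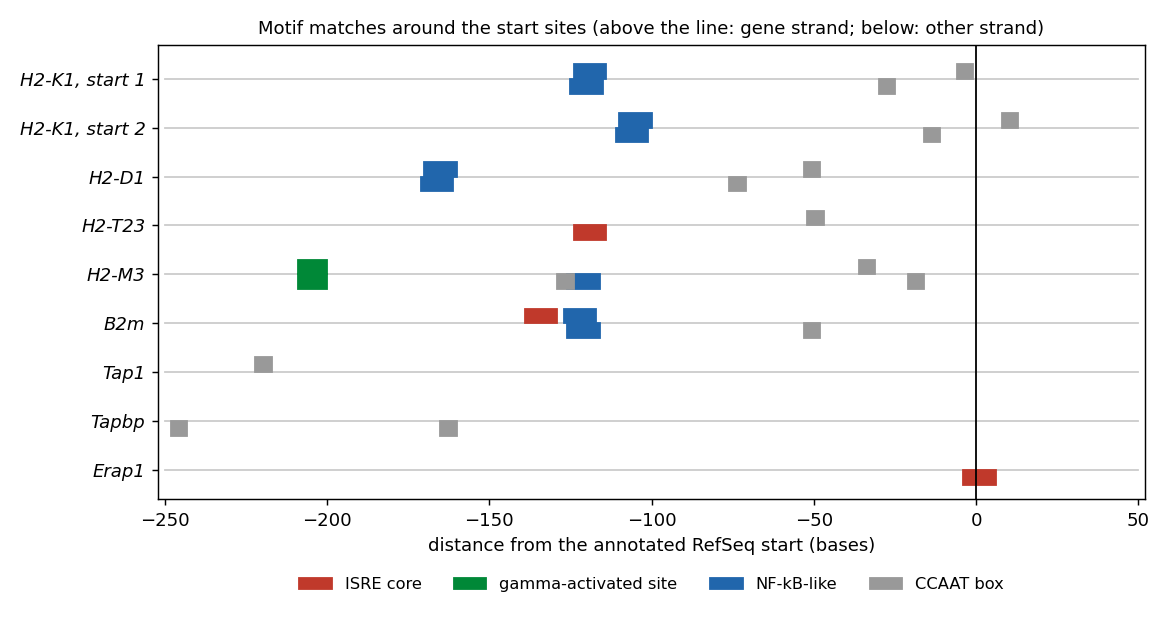
Positions of motif matches from 250 bases before to 50 bases after the annotated RefSeq start, in bases, for the 9 promoters of 8 genes. Blocks above a line are on the gene's strand and blocks below it on the other strand. The NF-κB-like matches of H2-K1, H2-D1, H2-M3 and B2m lie between positions -171 and -101, and no match of that motif was found around the starts of H2-T23, Tap1, Tapbp and Erap1.

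In the libraries labelled Hsp47-deleted, the classical heavy chains and H2-Bl were higher and B2m was lower, with no overlap between the groups for any of these 4 genes. H2-K1, a classical heavy chain that presents peptides to CD8+ T cells, was 7.55, 7.50 and 7.84 in controls 3, 4 and 2, and 8.50, 8.23 and 8.91 in the libraries labelled Hsp47-deleted 1, 2 and 3. All 3 labelled Hsp47-deleted libraries lay above every control. The means were 7.63 ± 0.18 and 8.55 ± 0.34 (SD, n = 3 each), a difference of 0.92 ± 0.31 (SE), and 0.71 remained against control 2 alone.

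H2-D1, the other classical heavy chain, was 6.93, 6.79 and 7.94 in controls 3, 4 and 2, and 8.85, 8.81 and 8.69 in the labelled Hsp47-deleted libraries. The 3 labelled Hsp47-deleted libraries were closely grouped above the controls, and control 2 lay between them and the controls of the first run. The means were 7.22 ± 0.63 and 8.78 ± 0.08 (SD, n = 3 each), a difference of 1.56 ± 0.37 (SE). Against control 2 alone it was 0.84, and control 2 itself exceeded the mean of controls 3 and 4 by 1.08.

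H2-Bl had the largest difference of the 10 on the deposited scale, but not with a pseudocount of 5, where it was 0.90 beside 1.53 for H2-D1. It was 0.09, 0.21 and 0.51 in controls 3, 4 and 2, and 2.49, 2.41 and 2.63 in the libraries labelled Hsp47-deleted. In the linear unit these were 0.0612, 0.154 and 0.425 against 4.61, 4.33 and 5.21, so every control lay under 1 linear unit. The log2 difference was 2.24 ± 0.32 (SE), and against control 2 alone it was 2.00. H2-Bl was the only member past a Benjamini-Hochberg adjusted limma p of 0.05, that is 1 of 10, where 0.245% of all 15109 tested genes passed in either direction. Without control 2, 3 members passed (H2-K1, H2-D1 and H2-Bl), where 2768 of all 15109 tested genes passed. Without any other single library 0 members did. Because this contrast was known when the genes were picked, nothing is read from the count of members.

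B2m, the light chain that every class I heavy chain here needs for surface display, went the other way. It was 12.17, 12.03 and 11.80 in controls 3, 4 and 2, and 11.35, 11.35 and 11.32 in the libraries labelled Hsp47-deleted. The 3 labelled Hsp47-deleted libraries were almost level, all below the lowest control. The means were 12.00 ± 0.18 and 11.34 ± 0.02 (SD, n = 3 each), a difference of -0.66 ± 0.32 (SE), and against control 2 alone it was -0.46. B2m was also the only member with no 31-base word of its transcripts in common with another gene.

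**Figure D2:**
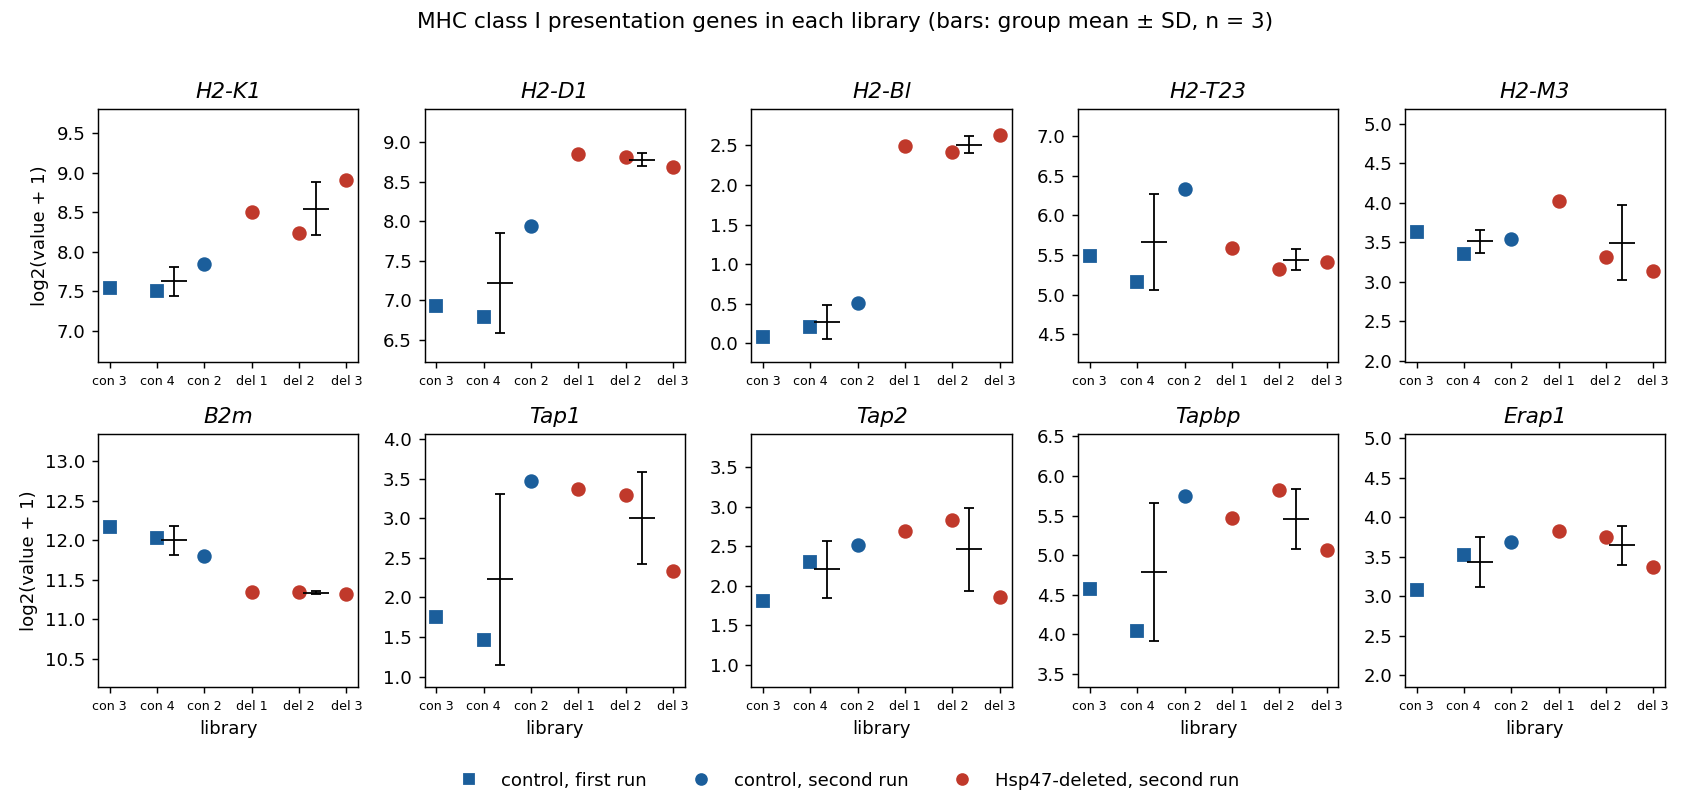
Value of each of the 10 genes in each library on the log2(value + 1) scale, with a separate vertical range per gene. Blue squares are controls of the first run, blue circles the control of the second run and red circles the libraries labelled Hsp47-deleted, and the bars give the group mean ± SD (n = 3). H2-K1, H2-D1 and H2-Bl lie higher and B2m lower in all 3 labelled Hsp47-deleted libraries, whereas the groups overlap for the other 6 genes.

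The remaining heavy chains did not follow H2-K1 and H2-D1. H2-T23, a nonclassical heavy chain recognised by receptors of natural killer cells, was 5.49, 5.15 and 6.34 in controls 3, 4 and 2, and 5.59, 5.33 and 5.41 in the labelled Hsp47-deleted libraries. Control 2 was the highest library, and the labelled Hsp47-deleted libraries lay among controls 3 and 4 or just above them. The difference was -0.22 ± 0.36 (SE) over all controls and -0.89 against control 2.

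H2-M3, which presents peptides that start with a formylated methionine, was 3.63, 3.36 and 3.55 in the controls, and 4.03, 3.32 and 3.14 in the labelled Hsp47-deleted libraries. The highest and the lowest value both came from the latter group. The difference was -0.02 ± 0.34 (SE) and -0.05 against control 2.

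Among the genes that supply and load peptides, Tap1 and Tapbp split the libraries by run rather than by label. Tap1 was 1.75 and 1.47 in controls 3 and 4 and 3.47 in control 2, against 3.37, 3.30 and 2.33 in the labelled Hsp47-deleted libraries. Every library of the second run was above both libraries of the first, and control 2 was the highest of all. The difference of 0.77 ± 0.58 (SE) over all controls became -0.47 against control 2.

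Tapbp had the same order of runs, with 4.57 and 4.04 in controls 3 and 4, 5.74 in control 2, and 5.48, 5.83 and 5.07 in the labelled Hsp47-deleted libraries. Its difference was 0.68 ± 0.47 (SE) over all controls and -0.29 against control 2. Control 2 exceeded the mean of controls 3 and 4 by 1.86 for Tap1 and by 1.44 for Tapbp, more than the difference between the labels in either case.

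Tap2 and Erap1 varied less. Tap2, the partner of Tap1 in the transporter, was 1.81, 2.30 and 2.51 in controls 3, 4 and 2, and 2.70, 2.83 and 1.86 in the labelled Hsp47-deleted libraries, a difference of 0.25 ± 0.39 (SE) and of -0.05 against control 2. Erap1 was 3.08, 3.52 and 3.69 in the controls, and 3.82, 3.75 and 3.36 in the other group, a difference of 0.21 ± 0.32 (SE) and of -0.04 against control 2. In both genes the library labelled Hsp47-deleted 3 was the lowest of its group, inside the range of the controls, and it was also the lowest of its group for Tap1, Tapbp and H2-M3.

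**Figure D3:**
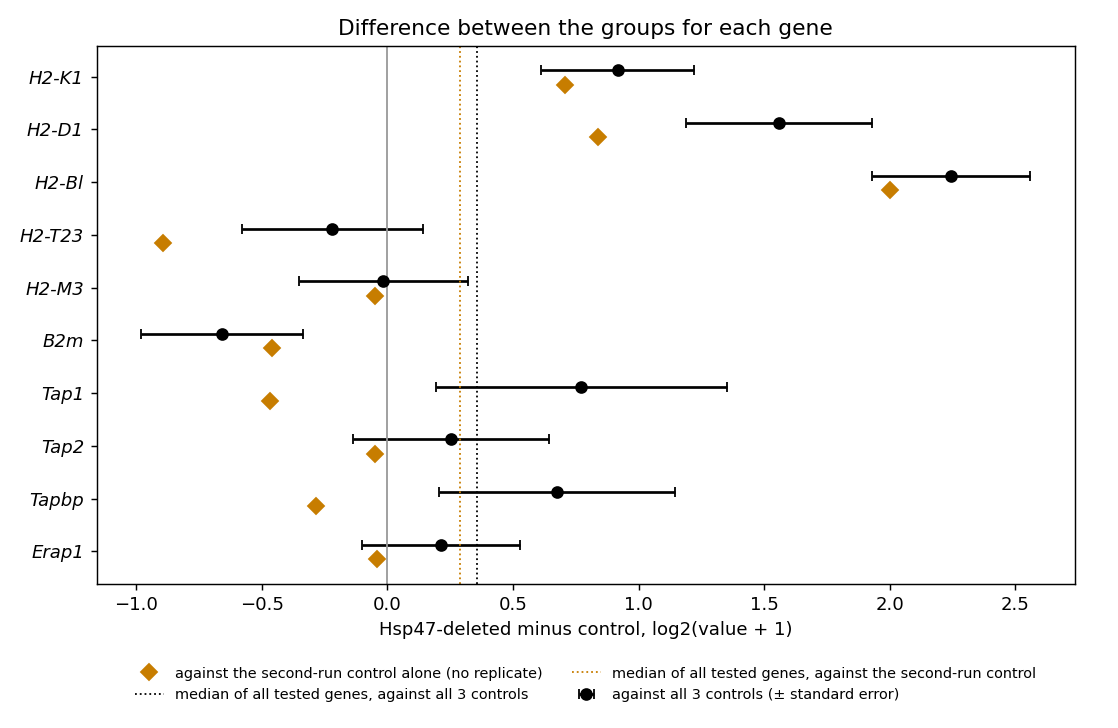
Difference between libraries labelled Hsp47-deleted and controls for each gene on the log2 scale. Black circles with bars are the difference from all 3 controls ± SE, orange diamonds the difference from the second-run control alone, and dotted lines the medians of all 15109 tested genes on each comparison (0.36 and 0.29). H2-K1, H2-D1, H2-Bl and B2m keep their direction in both comparisons, while Tap1, Tap2, Tapbp and Erap1 lie above 0 in the first and below 0 in the second.

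Over the 10 genes, the groups did not overlap for 3 that were higher and 1 that was lower in the libraries labelled Hsp47-deleted, where 18.3% of all tested genes were higher and 1.5% lower without overlap. An unadjusted limma p under 0.05 was reached by 3 members that were higher and by 0 that were lower, where 14.5% and 0.755% of all tested genes did so. H2-Bl is among the 3 in both counts. It was tested only through the group in which it was high, so these counts are a description only. The median difference of the members was 0.46 on the log2 scale, beside 0.36 for all tested genes, of which 11250 of 15109 had a positive difference. Against control 2 alone the median was -0.05 for the members and 0.29 for all tested genes. Leaving out 1 library, the members' median was 0.29 without control 3 (0.29 for all genes), 0.30 without control 4 (0.39) and 0.71 without control 2 (0.39). When each library was centred on its median, the median of all genes shifted to -0.06 and that of the members to 0.05, with H2-K1 at 0.50, H2-D1 at 1.14, H2-Bl at 1.83 and B2m at -1.07.

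A difference between a pair of abundant genes within 1 library hardly changes with the scaling of that library, whereas for low genes such as Tap1 and Tap2 the added 1 makes it depend on the scaling. H2-K1 minus B2m was -4.62, -4.52 and -3.96 in controls 3, 4 and 2, and -2.85, -3.12 and -2.42 in the libraries labelled Hsp47-deleted. The groups did not overlap, their means differed by 1.57, and 1.17 remained against control 2. H2-D1 minus B2m was -5.24, -5.24 and -3.86 against -2.51, -2.54 and -2.64, a difference of 2.22 between the means and of 1.30 from control 2. H2-K1 and H2-D1 were each higher and B2m lower without overlap. The lack of overlap in their differences from B2m was therefore fixed by those values and is no further result.

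H2-T23 minus H2-K1 compared heavy chains with each other. It was -2.05, -2.35 and -1.51 in the controls, and -2.91, -2.91 and -3.50 in the labelled Hsp47-deleted libraries, without overlap. H2-K1 itself was already higher without overlap, so this in part repeats its values and is not read as a further result. No share over other pairs of genes was taken. The means differed by -1.14, and by -1.60 from control 2. The groups overlapped for H2-D1 minus H2-K1, for Tap1 minus Tap2 and for Tapbp minus B2m.

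**Figure D4:**
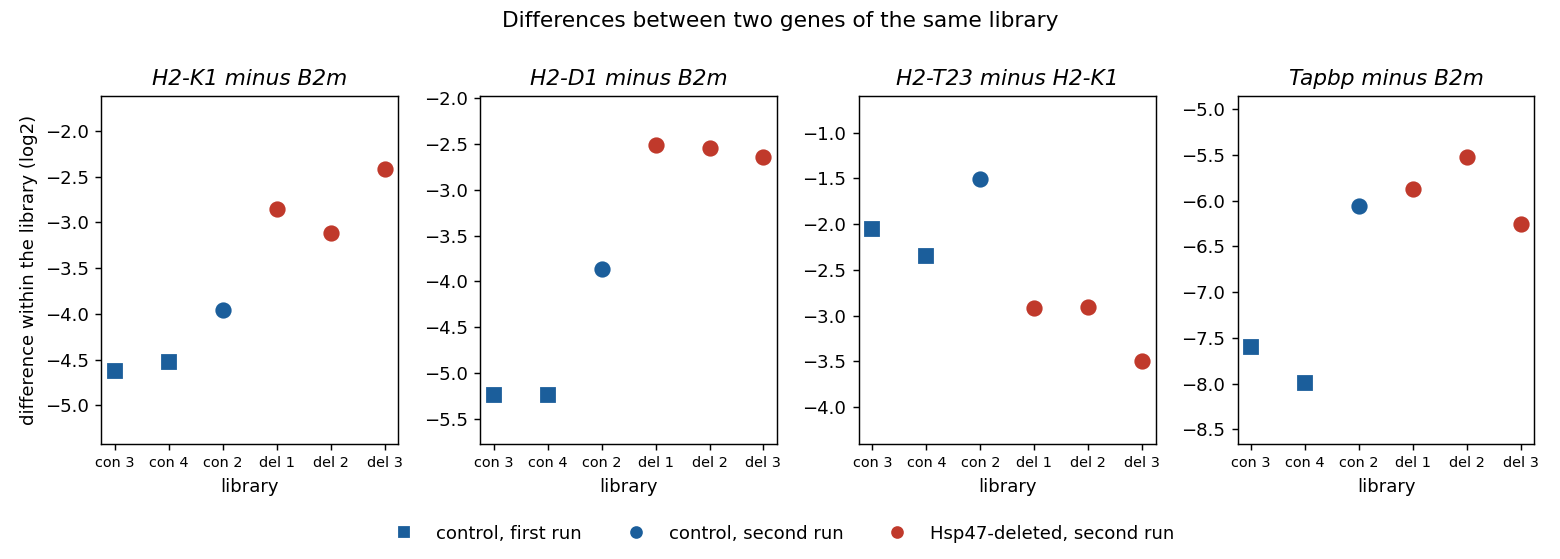
Differences between the log2 values of a pair of genes in the same library, with symbols as in the plot of the values by library. Each panel spans the same length of scale. H2-K1 minus B2m and H2-D1 minus B2m are higher and H2-T23 minus H2-K1 is lower in all 3 libraries labelled Hsp47-deleted, whereas for Tapbp minus B2m control 2 lies among them.

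Class I transcripts resemble one another, which bears on how reads are shared among them. Aligned to all other transcripts, none of the 10 genes had a match in another gene that reached 95% identity along 80% of the transcript. Of all 31-base words in the transcripts of a gene, the share also present in another gene was 22.8% for H2-K1, 26.9% for H2-D1, 21.5% for H2-Bl, 25.8% for H2-T23 and 4.62% for H2-M3. H2-K1 and H2-D1 had 358 words in common. H2-Bl had most of its shared words in common with H2-T23 (9.98%), Gm10499 (9.45%) and H2-Q1 (8.06%). H2-T23, the first of these, differed by -0.22 where H2-Bl differed by 2.24. H2-Q10, with 6.94% of the words of H2-Bl, differed by 1.86. H2-Q1, too low to be tested, was 0.29, 0.18 and 0.10 in controls 3, 4 and 2. It was 0.82, 0.80 and 1.15 in the libraries labelled Hsp47-deleted. The part of read sharing in these values was not tested.

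Several members also overlap other genes. The kit used is not stated to keep the strand of the RNA, so reads from overlapping genes on opposite strands cannot be told apart. Tap1 had 3.26% of its words in common with Psmb9, Tap2 11.3% with Gm15821, Tapbp 22.1% with Gm19412 and Erap1 11.0% with Cast. The values of these 4 genes and of the paralogous heavy chains are uncertain to that extent.

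Markers of leukocytes and endothelial cells and class II genes, taken as sums, moved with the runs too. Summed linear values of 24 leukocyte markers were 48.1 and 92.4 in controls 3 and 4, 496 in control 2, and 222 to 357 in the libraries labelled Hsp47-deleted. Ptprc, a marker of all leukocytes, was listed at 0 in every library. Class II presentation genes summed to 41.5 and 19.9 in controls 3 and 4, 178 in control 2, and 147 to 198 in the labelled Hsp47-deleted libraries. Endothelial markers summed to 331 and 153, then 796, then 364 to 745. High genes weigh most in such sums, such as S100a8 (7.38), S100a9 (7.40) and Fabp4 (8.59) in control 2. Control 2 exceeded the mean of controls 3 and 4 by list medians of 1.58, 1.87 and 1.54 for leukocyte, class II and endothelial genes. Cd68, Itgam, Cx3cr1, Cd8a, H2-DMb2, Vwf and Erg were instead lower in control 2 than that mean. All 3 sums were lowest in the first-run controls, as Tap1 and Tapbp were, while B2m was highest there. The fibroblast sum was lowest there too. So was the cardiomyocyte sum, with 100.5 and 52.7 in controls 3 and 4, 286.5 in control 2, and 180 to 294 in the labelled Hsp47-deleted libraries. The mural cell sum did not split by run. In bulk RNA, fewer cells of a type and less RNA per cell cannot be told apart, and the part of these cells in the class I values was not tested.

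Over all controls the list medians were 1.12 for leukocyte, 1.145 for class II and 0.78 for endothelial genes, beside 0.36 for all tested genes. In these lists 1 of 22, 1 of 8 and 2 of 15 genes had a negative difference. The 2 genes with the smallest p in each marker list are given next, and genes picked in this way tend to overstate a list. Laptm5 was 2.23 ± 0.79 (SE) and Ms4a1 1.10 ± 0.44 higher among the leukocyte markers, H2-Oa 1.16 ± 0.38 and H2-DMa 1.48 ± 0.60 among class II genes, and Cldn5 2.13 ± 0.72 and Pecam1 1.15 ± 0.49 among endothelial markers. Ms4a1, H2-Oa and H2-Ob had a control mean under 1 linear unit and were tested only through the group in which they were high. H2-Ob was named after its values were seen. The leukocyte and class II counts at an unadjusted p include these genes and are a description only. In these 3 lists 0 genes passed the adjusted limma threshold, and 4 of 22 leukocyte, 4 of 8 class II and 2 of 15 endothelial genes were higher at an unadjusted p under 0.05, beside 14.5% of all genes. Against control 2 the same 6 differences were 0.19, 0.23, 0.76, 0.11, 0.28 and 0.19, but other genes of these lists were below control 2. There 10 of 22 leukocyte, 4 of 8 class II and 11 of 15 endothelial genes were lower, with list medians of 0.03, 0.04 and -0.39. Of 9 cardiomyocyte markers Ttn was 1.70 ± 0.50 and Myh6 2.00 ± 0.61 higher, and the list median was 0.99 over all controls and -0.24 against control 2. Of the mural cell markers Pdgfrb was 1.49 ± 0.48 higher and Kcnj8 differed by -0.88 ± 0.46. Of 12 fibroblast markers, 1 passed the adjusted threshold, Postn, which encodes the matricellular protein periostin and rose by 4.41 ± 0.28, followed by Tcf21 at 2.09 ± 0.47.

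Beyond the 10 genes, 66 further genes of the class I pathway were listed in 4 groups, of which 55 were tested. None passed the adjusted limma threshold (0 of 55, against 0.245% of all genes). Without control 2, 13 did, where 2768 of all 15109 tested genes passed. At an unadjusted p under 0.05, 9 of 55 were higher and 0 lower, beside 14.5% and 0.755% of all genes. Without overlap 11 were higher and 1 lower, beside 18.3% and 1.5%. Their median difference was 0.37, next to 0.36 for all tested genes.

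Of 13 tested further heavy chains and class I-like genes, 2 were higher without overlap (18.3% of all genes) and 1 lower (1.5%), H2-T24 at -0.56 ± 0.29 (SE), named after its values were seen. H2-Q10, a heavy chain secreted mainly by liver, was 3.04, 2.72 and 3.73 in controls 3, 4 and 2, and 5.39, 5.47 and 4.19 in the labelled Hsp47-deleted libraries. The difference was 1.86 ± 0.45 (SE; limma, Benjamini-Hochberg adjusted p = 0.224) and 1.29 against control 2. H2-Q2 was 0.48, 0.57 and 0.69 against 1.85, 1.61 and 1.77, a difference of 1.16 ± 0.31 (adjusted p = 0.258, limma). Every control of H2-Q2 lay under 1 linear unit, so it was tested only through the group in which it was high. Its p and its place in the count above are a description only. H2-K1 had 9.50% of its 31-base words in common with H2-Q10. The median of this group was 0.27.

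Among 6 chaperones and editors of the loading complex, Canx and Calr had the smallest p. Canx, the membrane chaperone calnexin that holds newly made heavy chains before they pair with B2m, was 6.82, 6.96 and 7.66 in controls 3, 4 and 2, and 9.28, 8.64 and 9.38 in the labelled Hsp47-deleted libraries. The groups did not overlap, with a difference of 1.95 ± 0.36 (SE; limma, adjusted p = 0.114) and 1.44 against control 2. Calr, the soluble chaperone calreticulin that takes part in the loading complex, differed by 0.86 ± 0.29 (limma, adjusted p = 0.283), also without overlap. Canx minus Calr within a library was -0.54, -0.32 and -0.06 in the controls and 1.01, 0.46 and 0.89 in the other group, without overlap. Canx itself was already higher without overlap, so this in part repeats its values.

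Of 14 genes that make peptides, Psmb6, a catalytic subunit of the standard proteasome, was 1.47 ± 0.47 higher (adjusted p = 0.282, limma) and Lap3, a cytosolic aminopeptidase, 0.73 ± 0.29 (adjusted p = 0.313). The immunoproteasome subunits Psmb8 and Psmb10, named after their values were seen, had the pattern of Tap1. Psmb8 was 2.10 and 2.31 in controls 3 and 4, 4.63 in control 2, and 3.83, 3.21 and 3.20 in the labelled Hsp47-deleted libraries. Psmb10 was 1.70 and 1.07, then 4.39, then 4.33, 4.09 and 3.46. In both genes control 2 was the highest library.

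Of 22 regulators of class I transcription, Nfyc, a subunit of the NF-Y complex that binds CCAAT boxes, was 1.11 ± 0.36 higher (adjusted p = 0.283, limma), and Rfxank, a subunit of the RFX complex, 0.76 ± 0.34 (adjusted p = 0.334). Nlrc5, the coactivator of class I genes, was named after its values were seen and differed by -0.15 ± 0.35. Irf1, an interferon-induced factor that binds response elements of class I promoters and likewise named after its values were seen, was 3.63 and 2.90 in controls 3 and 4, 6.03 in control 2, and 6.67, 6.36 and 4.90 in the labelled Hsp47-deleted libraries.

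Interferon-induced genes outside the pathway were compared with the members because interferons raise both. Of 32 tested, 0 passed the adjusted limma threshold, and 2 were higher and 2 lower at an unadjusted p under 0.05, beside 14.5% and 0.755% of all genes. Ifi35 was 1.21 ± 0.42 higher and the chemokine Cxcl10 0.84 ± 0.31 higher (limma, adjusted p = 0.289 and 0.304). The 2 lower genes, named after their values were seen, were Ifi44 at -0.77 ± 0.29 and Iigp1 at -0.72 ± 0.29 (limma, adjusted p = 0.3055 and 0.3181). The median of the list was 0.15 over all controls and -0.71 against control 2, and control 2 exceeded the mean of controls 3 and 4 by a median of 1.25. H2-T23, Tap1 and Tapbp were likewise above controls 3 and 4 in control 2 and on average lower than control 2 in the labelled Hsp47-deleted libraries, whereas H2-K1, H2-D1 and H2-Bl were higher than control 2 in all 3 of those libraries.

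**Figure D5:**
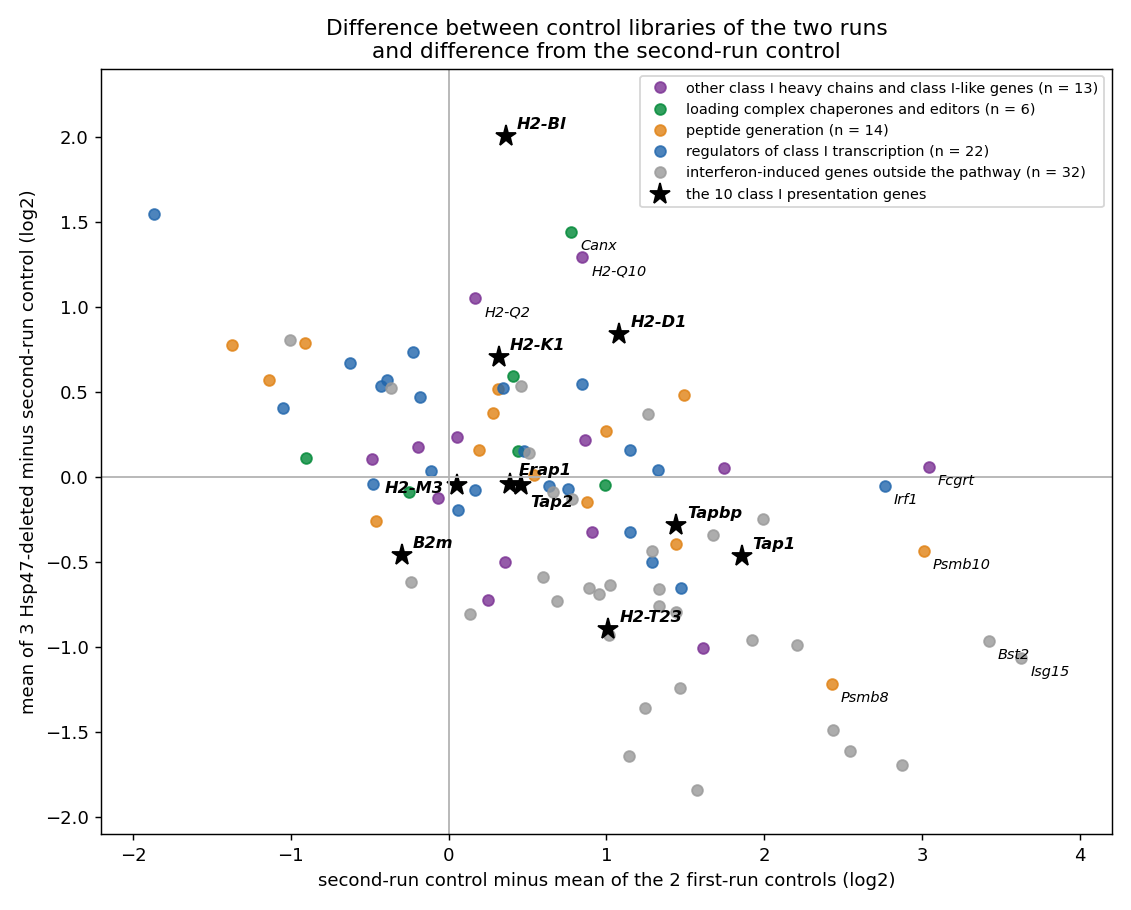
Difference of the second-run control from the mean of the 2 first-run controls (horizontal) and difference of the mean of the 3 libraries labelled Hsp47-deleted from the second-run control (vertical), both in log2 units, for the 10 genes (stars) and 5 gene lists (circles). Both axes use the second-run control, so a high value in that library moves a point right and down at once and no relation is read from the slope. Of the circles with names, Fcgrt, Irf1, Psmb8, Psmb10, Bst2 and Isg15 were picked after their values were seen. H2-Bl, H2-D1 and H2-K1 lie above 0 on both axes, Tap1, Tapbp and H2-T23 right of 0 and below it.

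The genes whose profile over the 6 libraries was nearest to the mean profile of the 10 members, each gene centred on its mean, were Spcs2 (root mean square difference 0.03 log2 units), Slc25a28 (0.04), Glt8d1 (0.04), Fkbp15 (0.05) and Ppfibp1 (0.05). The mean profile itself ran from -0.54 in control 4 to 0.44 in the library labelled Hsp47-deleted 1. The members' own distances from that mean ran from 0.25 for Erap1 to 0.86 for H2-Bl. The 5 genes were the nearest of all tested genes by choice, so the distances of members and of these genes are not compared.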

How the data were processed

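EGFP+ cells were sorted from ventricles and their RNA was amplified (Ovation RNA-Seq System v2) and sequenced after Nextera XT preparation. Values are on the log2(value + 1) scale as the authors deposited them, in 1 table with 28987 genes and 6 libraries. The submitters' processing notes name kallisto and the build mm10, and the study's methods name AltAnalyze; the linear unit and versions are not given in the sources used here. The deposited group means, folds and p-values of the authors' own comparison were not used. There are no counts, so the depth is unknown and the number of libraries limits the precision.

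A gene was tested where its linear mean over the 6 libraries was 1 or more (15109). Groups were taken from the genotype labels and fitted in limma 3.58.1, R 4.3.3 (mean-variance trend, no covariate, Benjamini-Hochberg adjustment over all tested genes), which was tested on simulated data. The smallest two-sided p of an exact permutation test with 3 libraries in each group is 0.1. Positions came from GENCODE M21, near copies from minimap2 2.31-r1302, and shared words from a search of all 31-base words of the transcripts, a length chosen as kallisto's default. Promoters came from RefSeq (GRCm38.p6).

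The members, lists, motifs and alternatives were chosen with earlier results of these data known. Named genes are the members, the 2 tested genes of each list with the smallest p, the 5 nearest profiles and Serpinh1, with exceptions marked. H2-Q8, H2-Q9, Psmb9 and Adgre1 were listed but not analysed here. Alternatives were sequencing run as a covariate or the second run alone, a replicate block, other filters and pseudocounts, quantile normalization, centring, limma without the trend or with robust estimation (statmod 1.5.0), a restriction to members without a near-identical copy, and leaving out each library.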

Additional observations from a re-analysis of the deposited data

How the results depend on the processing

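The count of 1 member past the adjusted threshold (H2-Bl) remained with robust estimation and when limma used no trend. No member had a near-identical copy, so that restriction removed nothing. It fell to 0 with run as a covariate, with the replicate block, without a filter, with pseudocounts of 0.1 and 5, after quantile normalization and after centring, and with a mean of at least 5, a filter that removes H2-Bl and Tap2. Leaving out 1 library gave 0 to 3, the 3 (H2-K1, H2-D1, H2-Bl) without control 2 and 0 without any other library. Further pathway genes past the threshold numbered 0, and 0 to 13 when 1 library was left out (13 without control 2). Over all genes, 37 were called, 50 with run as a covariate, 0 with the block, 16, 17 and 18 with the pseudocount of 0.1, quantile normalization and centring, and 8 to 2768 when 1 library was left out (2768 without control 2, 8 to 19 otherwise). The members' median of 0.46 became -0.0501 with run as a covariate and in the second run alone, 0.0706 after quantile normalization, 0.0495 after centring, 0.20 with the replicate block (0.41 for all genes), 0.29 with a pseudocount of 5, and 0.29 to 0.71 when 1 library was left out. In the second run, by either route, Tap1 became -0.47, Tapbp -0.29, Tap2 -0.0499 and Erap1 -0.0429; Tap2 was -0.17 and -0.16 and Erap1 -0.19 and -0.20 after quantile normalization and centring. When 1 library was left out, H2-T23 ran from -0.47 to 0.12 (above 0 only without control 2) and H2-M3 from -0.28 to 0.16. The causes were not tested. The labels do not say that replicate numbers pair the samples; deviations of same-numbered libraries correlated at 0.16 and 0.23 over 2 pairs, each the best match of 1 of its 2 libraries only. H2-K1, H2-D1 and H2-Bl stayed above 0 and B2m below 0 in every alternative that gave a value (H2-Bl has none with a mean of at least 5), but H2-K1 fell to 0.36 (quantile) and 0.50 (centred), H2-D1 to 0.84 (second run), H2-Bl ran from 0.90 (pseudocount 5) to 4.11 (pseudocount 0.1) and B2m reached -1.07 (centred).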
